A study of Mus musculus with 4 samples.

Results

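The abundance of MYC family proteins is set to a large part by ubiquitin, and 7 genes of that machinery, Huwe1, Fbxw7, Skp2, Usp28, Usp7, Trim32 and Stub1, are described here in blood stem cells sorted for high or low N-myc. They were chosen by name, and every probe set that the platform annotation gives to 1 of them alone was taken. They were 7 of the 18193 genes measured, and 24 of 45037 probe sets that are not controls belonged to them. Each gene is represented by its brightest probe set on average, and the other probe sets are given beside it.

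RNA came from haematopoietic stem cells (HSCs) of mice that carry a transgene fusing N-myc to the red fluorescent protein mCherry. Bone marrow cells without lineage markers and CD48, and with Sca-1, Kit and CD150, were split by mCherry into cells with N-myc high and cells with N-myc low, and both fractions had 1 array from mouse 1 and 1 from mouse 2. All 4 arrays thus come from untreated fusion carriers, with no wild-type animal among them, and the sources used here give neither the promoter of the fusion nor the strain or age of the mice. Values are log2 probe set intensities, pairs of values give mouse 1 and then mouse 2, and a difference is N-myc high minus N-myc low. A brighter probe set is not a more abundant gene, so levels are compared between arrays and not between genes.

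Ubiquitin ligases attach ubiquitin to a protein and often send it to the proteasome, and deubiquitinases take it off again. Huwe1 is a giant ligase of the HECT class that acts on N-Myc, c-Myc and other proteins, and it is the ligase in the title of the series. Fbxw7 and Skp2 are F-box proteins, the parts of SCF ligases that pick the substrate: Fbxw7 reads a phosphorylated degron in MYC proteins and limits the cycling of HSCs, while Skp2 acts on c-Myc and on the cell-cycle inhibitor p27. Trim32 is a RING-type ligase with c-Myc among its targets, and Stub1, also called CHIP, is a U-box ligase that works with heat-shock chaperones. Usp28 removes ubiquitin from MYC proteins bound by Fbxw7, and Usp7 stabilises N-Myc and the p53 ligase Mdm2, as shown in human cells. The arrays measured RNA, and no value here bears on protein or on ubiquitin.

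MYC proteins with their partner Max bind the E-box CACGTG, so the promoters of the 7 genes were searched for it. RefSeq promoter windows of build GRCm38.p6, from 250 bases before to 50 bases after each annotated start, were found for 7 of 7 genes, 10 windows in all. CACGTG, a palindrome that reads alike on both strands, was in 1 of the 10 windows and in 7.15% of all 32851 windows. Of the windows printed, that of Stub1 (chr17:25832870-25833169, minus strand) holds it, with its first base 69 bases before the start. Those of Huwe1 (chrX:151803032-151803331, plus strand) and Usp7 (chr16:8738293-8738592, minus strand) do not, and both lie inside the annotated span of their gene. Huwe1 is shown as the ligase of the series and Usp7 as the 1 member whose brightest probe set had an unadjusted p under 0.05. The windows run 5′ to 3′ on the gene's strand, and capitals mark the E-box.
Huwe1: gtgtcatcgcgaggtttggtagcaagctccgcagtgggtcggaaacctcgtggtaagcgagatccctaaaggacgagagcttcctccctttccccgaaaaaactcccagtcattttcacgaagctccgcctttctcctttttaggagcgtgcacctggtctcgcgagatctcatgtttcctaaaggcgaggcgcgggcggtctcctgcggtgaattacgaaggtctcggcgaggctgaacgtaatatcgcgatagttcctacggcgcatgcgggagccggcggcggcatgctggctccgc
Usp7: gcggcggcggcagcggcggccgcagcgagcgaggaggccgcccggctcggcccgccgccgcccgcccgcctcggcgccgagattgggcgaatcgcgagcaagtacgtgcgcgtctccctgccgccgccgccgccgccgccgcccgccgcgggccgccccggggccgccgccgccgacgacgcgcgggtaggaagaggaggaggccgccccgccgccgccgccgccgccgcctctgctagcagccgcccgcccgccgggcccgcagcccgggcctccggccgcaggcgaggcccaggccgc
Stub1: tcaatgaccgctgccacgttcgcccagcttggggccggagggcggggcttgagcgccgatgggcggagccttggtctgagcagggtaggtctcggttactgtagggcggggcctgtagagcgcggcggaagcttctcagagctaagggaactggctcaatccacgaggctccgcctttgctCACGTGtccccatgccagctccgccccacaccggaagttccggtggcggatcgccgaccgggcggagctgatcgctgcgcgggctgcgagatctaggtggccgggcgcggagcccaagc
A match is a string of letters and not a shown binding site, and a window without one says nothing about binding elsewhere.

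As a check of the sort, Mycn had log2 intensities of 10.48 and 10.39 in N-myc high (mouse 1 and 2), against 9.44 and 9.65 in N-myc low, with no overlap. Its other 2 probe sets had overlapping groups and opposite signs in the mice, with differences of 0.11 and 1.06. Stem cell markers were present, among them Kit at 10.17 and 10.29 in N-myc high, against 10.18 and 10.53 in N-myc low, while the T cell gene Cd3e lay between 3.20 and 3.29 on all arrays. The stem cell list as a whole (10 of 12 measured) had 7 differences above 0 and a median of 0.48, beside -0.03 over all genes. Its median was 0.12 in mouse 1 and 0.86 in mouse 2. Of the 10 genes, 0 passed the adjusted threshold in limma. At an unadjusted p under 0.05, 4 (40%) were higher, where 3.53% of all genes were. Procr, one of them, had log2 intensities of 9.18 and 9.27 in N-myc high, against 7.99 and 8.08 in N-myc low. Cd48, which the gate selects against, was at 7.42 and 7.11 in N-myc high, against 9.89 and 9.07 in N-myc low. The list of 4 genes taken as sort-excluded was split, with 2 differences above 0 and 2 below. Cd48 and Fcgr3 had -2.21 and -0.75, while Flt3 and Il7r had 1.20 and 0.33. Summed macrophage markers (10 of 10 measured) were at 9.65 and 9.52 in N-myc high, against 9.02 and 8.69 in N-myc low on the log2 scale. Without C1qb, left out after its value was seen, the other 9 summed to 8.97 and 8.55 in N-myc high, against 8.86 and 8.50 in N-myc low, and 4 of them had differences below 0. Dendritic cell and MHC class II markers (8 of 8) were at 10.90 and 10.94 against 9.65 and 9.38. H2-Aa and Cd74, with differences of 1.42 and 2.15, were the brightest of the 8 and weigh most in this sum. Differences were above 0 for 5 of the 8 and below 0 for 3, which lay between -0.19 and -0.03. At an unadjusted p under 0.05 in limma, 4 (50%) were higher, where 3.53% of all genes were, and 0 passed the adjusted threshold. Besides H2-Aa and Cd74 these were Zbtb46 and Flt3, with differences of 1.64 and 1.20. The granulocyte and monocyte markers (9 of 10) were at 14.97 and 14.81 against 15.09 and 15.09. B cell markers (7 of 8), unlike Cd3e, varied between arrays, at 9.906 and 8.965 against 8.326 and 10.265, with opposite signs in the mice. Among them, Ighm was at 8.86 and 6.67 against 5.63 and 9.84, and Vpreb1 at 8.29 and 6.51 against 4.14 and 5.77. Summed erythroid markers (7 of 9) were lower in N-myc high in both mice, with overlapping groups. The part of these shifts in the values below was not tested, and in sorted bulk samples fewer cells of a type and less RNA per cell cannot be told apart. Xist was at 11.38 and 11.10 in mouse 1 (N-myc high and low) and at 3.84 and 3.70 in mouse 2, while Y-linked Eif2s3y was at 8.53 and 8.43 in mouse 1 and at 9.40 and 9.67 in mouse 2, so whether mouse 1 is a single animal is not settled by its labels. Each fraction holds 1 array of either mouse. The spiked-in controls bioB and bioC had 10.85 and 10.81 in N-myc high against 11.05 and 11.67 in N-myc low, and their part was not tested either.

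None of the 7 genes passed a Benjamini-Hochberg adjusted p under 0.05 in limma, and neither did any other gene (0 of 18193, or 0%). At an unadjusted p under 0.05, 1148 genes (6.31%) were counted, and the deubiquitinase Usp7 was the 1 member among them. Its value was higher in N-myc high, as for 3.53% of all genes, and 0 members were counted as lower, as 2.78% of all genes were. The other 6 members had differences below 0, between -0.33 and -0.02, where 54.7% of all genes lay below 0. Both N-myc high arrays lay below both N-myc low arrays for 3 members, Huwe1, Trim32 and Stub1, where 20.8% of all genes do so. They lay above for Usp7, where 15.6% of all genes do so. The median difference of the 7 was -0.19, with -0.11 in mouse 1 and -0.32 in mouse 2, beside -0.03 over all genes. With 2 arrays against 2, the smallest two-sided p of an exact permutation test is 0.333, so each adjusted p here rests on the spread that limma pools over genes.

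**Figure D1:**
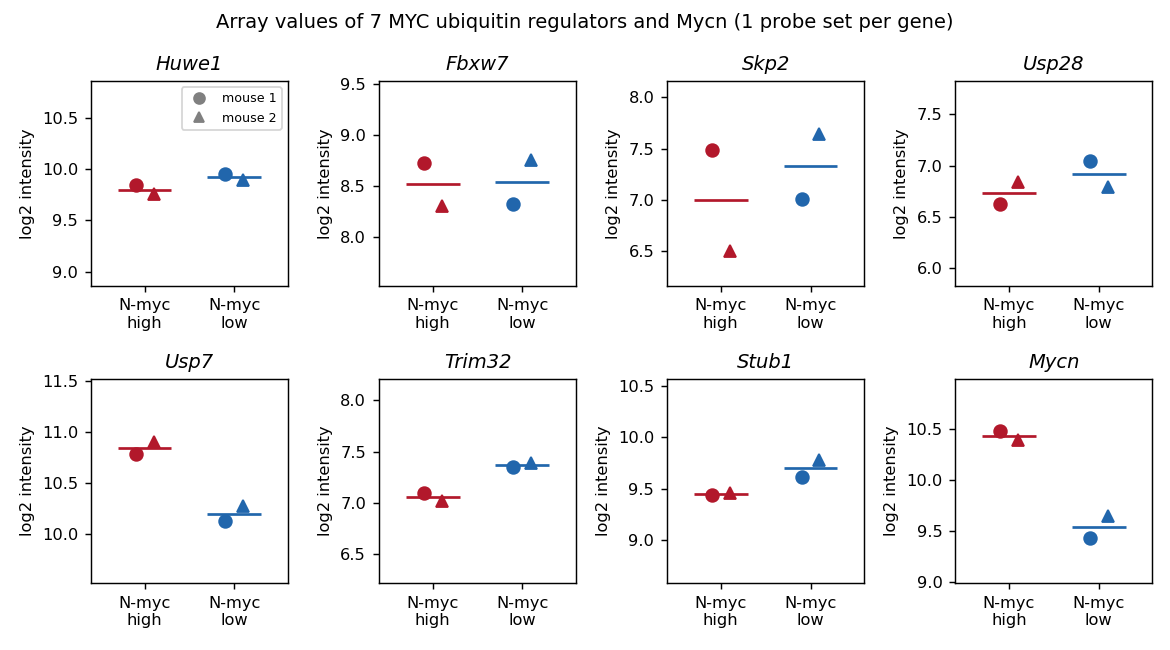
Log2 intensity (vertical axis) of the 7 genes and of Mycn on each array, with N-myc high in red and N-myc low in blue, circles for mouse 1, triangles for mouse 2 and bars for the mean of a group. The panels each span the same range of log2 units. The groups do not overlap for Huwe1, Usp7, Trim32, Stub1 and Mycn, and they overlap for Fbxw7, Skp2 and Usp28.

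Among the ligases, Huwe1 (Entrez 59026, chromosome X, 151800785 to 151935417 in GRCm38.p6) was at 9.84 and 9.76 in N-myc high, against 9.95 and 9.89 in N-myc low. Both N-myc high arrays were thus the lower ones, with a mean of 9.80 ± 0.059 in N-myc high against 9.92 ± 0.043 in N-myc low (SD, n = 2 each). The difference of -0.12 had a standard error (SE) of 0.175 and a limma adjusted p of 0.920. Its 95% interval, which is not adjusted for the number of genes, ran from -0.59 to 0.34 on the log2 scale. In linear terms this is 0.919-fold with an interval from 0.665 to 1.27. For this probe set, a 1.56-fold change, as in Usp7, lay outside it in either direction. Among the other Huwe1 probe sets, the interval of 1424949_at (0.350 to 1.26) held such a change downward. That of 1444279_at (0.964 to 1.92) held it upward. The interval of 1443183_at (0.608 to 1.39) held it downward, and that of 1448056_at (0.520 to 1.563) held it in both directions. The interval of the brightest probe set is not a limit of detection, and the missed threshold does not show that Huwe1 RNA was unchanged.

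Huwe1 had 4 other probe sets, which did not move as one. The probe set 1424949_at was at 8.11 and 7.28 in N-myc high, against 8.21 and 8.37 in N-myc low, and the low value of mouse 2 in N-myc high made most of its difference of -0.59. The probe set 1444279_at went the other way, with 7.02 and 7.19 in N-myc high against 6.69 and 6.63 in N-myc low, a difference of 0.44 (SE 0.183, limma adjusted p = 0.792). The groups did not overlap for either of them. The remaining pair, 1443183_at and 1448056_at, had differences of -0.12 and -0.15 with overlapping groups and opposite signs in the mice. The probe sets 1415703_at, which stands for the gene, and 1424949_at were designed from the same sequence record, per the platform annotation.

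Trim32 (chromosome 4, 65604986 to 65616240), the RING-type ligase, had 1 probe set and no overlap, with 7.09 and 7.02 in N-myc high against 7.35 and 7.39 in N-myc low. Its means were 7.05 ± 0.052 in N-myc high against 7.37 ± 0.026 in N-myc low (SD, n = 2 each). The difference of -0.31 (SE 0.174, limma adjusted p = 0.806) was larger than both SDs, but it missed the threshold. Its sign was the same in both mice, with -0.26 in mouse 1 and -0.37 in mouse 2. Leaving out an array moved it between -0.35 and -0.28.

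Stub1 (chromosome 17, 25830634 to 25832919), the chaperone-linked ligase, was at 9.44 and 9.46 in N-myc high, against 9.62 and 9.78 in N-myc low. The N-myc high fraction was thus the lower one in both mice, with a difference of -0.25 (SE 0.180, limma adjusted p = 0.832). This value comes from an x_at probe set, a type in which some probes can bind other transcripts. The other probe set, 1416580_a_at, had 9.43 and 9.65 in N-myc high against 9.75 and 9.39 in N-myc low, overlapping groups and a difference of -0.03. Over the mean of both probe sets the difference was -0.14.

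Fbxw7 (chromosome 3, 84814990 to 84979198), the degron reader, depended on which of its 2 probe sets was read. The brighter one was at 8.73 and 8.31 in N-myc high, against 8.32 and 8.76 in N-myc low, so the mice crossed and the difference was -0.02 (SE 0.265, limma adjusted p = 0.997). It became 0.19 without the N-myc high or the N-myc low array of mouse 2. The other, 1424986_s_at, was at 7.36 and 7.13 in N-myc high, against 7.91 and 7.95 in N-myc low. Here the N-myc high array was the lower one in both mice, with differences of -0.55 and -0.82, and the difference of -0.68 (SE 0.190) had a limma adjusted p of 0.765 over all probe sets. Both probe sets were designed from the same sequence record, and s_at marks a probe set whose probes can match more than 1 transcript. The files do not say which part of Fbxw7 RNA, or which of its isoforms, either reads.

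Skp2 (chromosome 15, 9111982 to 9155425), the F-box protein of p27, had 6 probe sets and, of the 7 genes, the widest spread within both fractions. The brightest was at 7.48 and 6.50 in N-myc high, against 7.01 and 7.65 in N-myc low. The difference of -0.33 (SE 0.426, limma adjusted p = 0.911) was smaller than the SD within N-myc high of 0.693, and it was 0.16 when N-myc high mouse 2 was left out, or -0.01 when N-myc low mouse 2 was. The probe set 1418969_at was at 6.34 and 5.44 in N-myc high against 6.96 and 7.08 in N-myc low, and 1449293_a_at at 4.81 and 5.42 against 6.42 and 5.64. Both had N-myc high below N-myc low without overlap, by -1.13 (SE 0.358, limma adjusted p = 0.765) and -0.92 (SE 0.380, limma adjusted p = 0.792). The other 3 had overlapping groups and differences of 0.32, 0.04 and -0.94. The last of these came from mouse 1, where 1425072_at was at 4.15 in N-myc high, against 6.19 in N-myc low, beside 4.51 and 4.35 in mouse 2.

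Of the deubiquitinases, Usp28 (chromosome 9, 48985319 to 49042517), which counters Fbxw7, had 1 probe set with 6.62 and 6.84 in N-myc high, against 7.05 and 6.79 in N-myc low. The groups overlapped, and the sign differed between the mice, with -0.42 in mouse 1 and 0.05 in mouse 2. The difference was -0.19 (SE 0.205, limma adjusted p = 0.890), close to the SDs, which were 0.154 for N-myc high and 0.181 for N-myc low.

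Usp7 (chromosome 16, 8688722 to 8757067) was at 10.78 and 10.90 in N-myc high, against 10.13 and 10.27 in N-myc low. The N-myc high value was above the other by 0.65 in mouse 1 and 0.62 in mouse 2. The mean difference of 0.64 (SE 0.183) is 1.56-fold, with a 95% interval from 1.11 to 2.18 that is not adjusted for the number of genes, and the limma adjusted p was 0.769. The difference was larger than the SDs, which were 0.082 for N-myc high and 0.104 for N-myc low. Its probe set is of the s_at type. Leaving out an array moved it between 0.56 and 0.71.

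The 7 probe sets of Usp7 fell into several patterns. The probe set 1419920_s_at, designed from the same sequence record as the one above, was at 10.58 and 10.87 in N-myc high against 9.69 and 10.05 in N-myc low, and 1454949_at was at 6.72 and 6.68 against 6.31 and 5.98. Both therefore had N-myc high on top, with differences of 0.85 and 0.56. In 1438249_at N-myc high was below, with 7.15 and 6.92 against 7.49 and 7.57 and a difference of -0.49. The last 3, 1437118_at, 1454948_at and 1434371_x_at, had overlapping groups and differences of -0.08, -0.36 and -0.13. In 1454948_at and 1434371_x_at the N-myc low array of mouse 1 stood above the other arrays, at 10.02 and 9.51, while N-myc low mouse 2 was at 8.89 and 8.59. These 2 share their sequence record with 1454949_at, which pointed the other way. With all 7 probe sets averaged, the Usp7 difference was 0.14 (SE 0.181, limma adjusted p = 0.901). Of the 7, 4 had differences below 0, so both the size and the sign of the Usp7 difference rest on the choice of probe set.

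**Figure D2:**
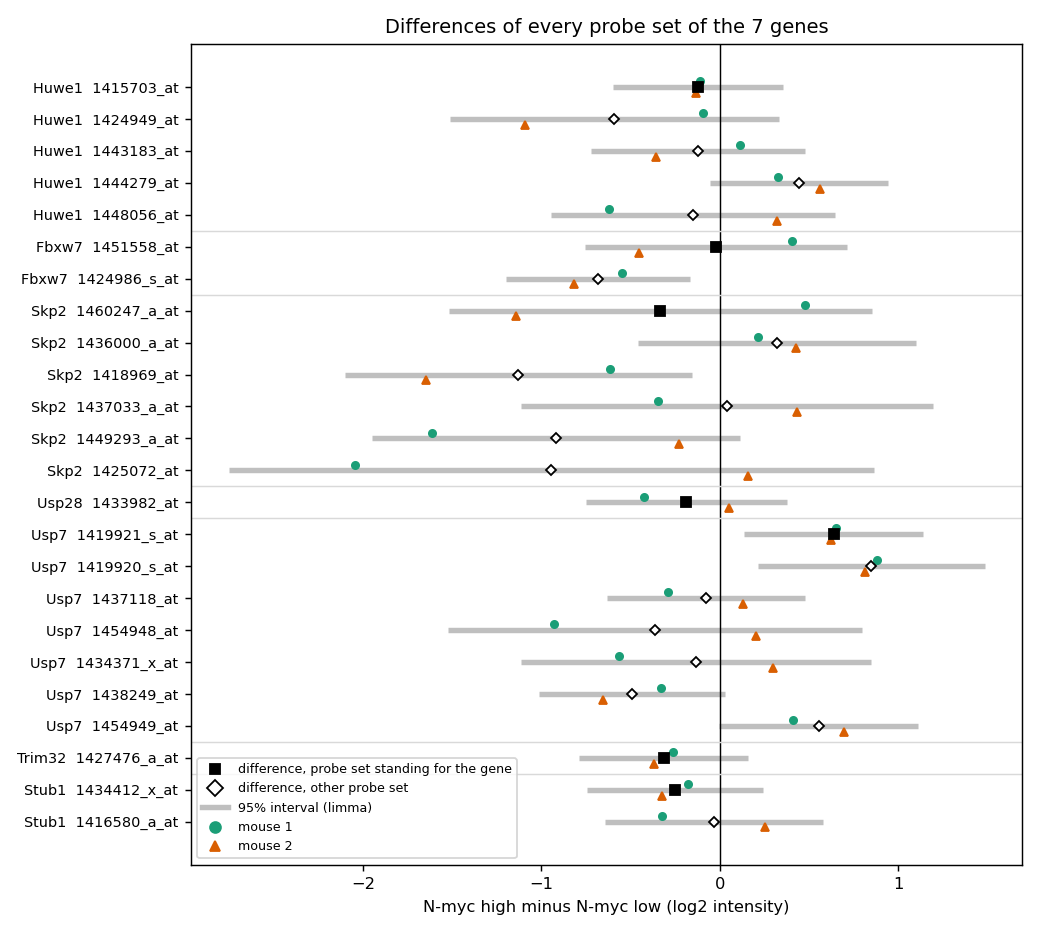
Difference between N-myc high and N-myc low (horizontal axis, log2 units) for each of the 24 probe sets, as the mean (black square for the probe set that stands for the gene, open diamond for others), the 95% interval of the limma fit over all probe sets (grey bar) and the value in mouse 1 (green circle) and mouse 2 (orange triangle). Intervals lie off 0 for 2 Usp7 probe sets on the right and for 1 each of Fbxw7 and Skp2 on the left, before any adjustment.

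Over the 24 probe sets, 18 differences were below 0 and 6 above, with a median of -0.14, and 56.8% of all probe sets lay below 0. N-myc high lay below N-myc low without overlap in 8 (33.3%) and above in 4 (16.7%), where 22.1% and 14.4% of all probe sets do so. At an unadjusted p under 0.05 there were 4 (16.7%), beside 6.37% of all probe sets. They were 2 higher and 2 lower, where 3.06% of all were higher and 3.32% lower. Probe sets of 1 gene share their RNA and often their sequence record, so these counts are not those of independent measurements. Differences spanned 1.04 log2 units over the probe sets of Huwe1, 1.45 over those of Skp2 and 1.34 over those of Usp7. The median span over the 856 genes with at least 5 probe sets was 0.93, and 89.3% of these genes had probe sets of both signs. A sign that changes with the probe set was therefore common on this platform and not particular to the 3 genes.

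**Figure D3:**
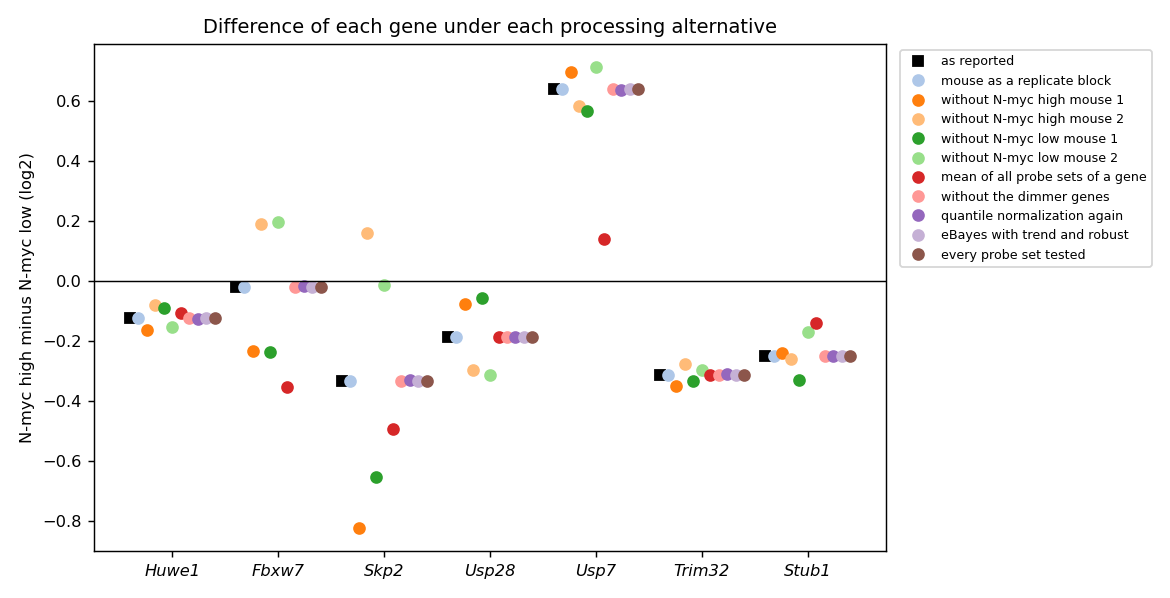
Difference between N-myc high and N-myc low (vertical axis, log2 units) of each gene as reported (black square) and under each processing alternative (coloured circles, named in the legend, where the dimmer genes are those below the median of gene means). Usp7 is above 0 in each, with its lowest point of 0.14 from the mean of its probe sets. Fbxw7 and Skp2 lie on both sides of 0, and the other 4 genes are below 0.

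The rest of the pathway was read from 7 lists that held 174 genes, of which 162 were measured. Over all genes, 6.31% had an unadjusted p under 0.05 in limma, 3.53% higher and 2.78% lower. For the core of SCF ligases, on which Fbxw7 and Skp2 sit, 0 of 11 genes passed an unadjusted p under 0.05 in limma, and 0 the adjusted threshold, with a median difference of -0.09. Nae1, a subunit of the enzyme that activates Nedd8 for cullins, was at 8.05 and 8.33 in N-myc high, against 8.40 and 8.71 in N-myc low, a difference of -0.37. Cks1b, the cofactor with which Skp2 binds p27, had 0.31, and the adaptor Skp1 had -0.28, both with overlapping groups. The other probe set of Skp1 had the opposite sign, with 0.18, and that of Cks1b had 0.10. The count was 1 when N-myc high mouse 2 was left out.

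For other ligases and deubiquitinases reported to act on MYC proteins, 22 of 24 listed genes were measured, with a median of 0.06. At an unadjusted p under 0.05 there was 1 gene (4.55%). That gene was Usp22, the deubiquitinase of the SAGA coactivator, with 9.56 and 9.41 in N-myc high, against 8.86 and 8.69 in N-myc low. Its difference was 0.71 (SE 0.188, limma adjusted p = 0.762), and its other probe set gave 0.58. The F-box gene Fbxo32 had 0.58, although 1 of its 2 other probe sets had -0.54, and the ligase gene Rchy1 had -0.40. The count was 2 when N-myc high mouse 2 was left out.

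The kinases and partners that write or guard the degron read by Fbxw7 had a median of -0.07 over 14 measured of 18 genes. Again 1 (7.14%) had an unadjusted p under 0.05. Gsk3a, one of the GSK3 kinases that phosphorylate the degron, was at 8.01 and 8.31 in N-myc high, against 7.49 and 7.34 in N-myc low, a difference of 0.75 (SE 0.205, limma adjusted p = 0.769). Aurka, which shields N-Myc from Fbxw7 in human neuroblastoma cells, was at 8.26 and 7.71 in N-myc high against 8.32 and 8.52 in N-myc low, a difference of -0.44. Dyrk2, a priming kinase, had 0.44, with 2 of its 3 other probe sets on the opposite side. The count was 0 when N-myc high mouse 2 was left out and 2 when N-myc low mouse 1 was.

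HECT ligases other than Huwe1 had a median of -0.14 over 23 measured of 25 genes, with 0.21 in mouse 1 and -0.38 in mouse 2. At an unadjusted p under 0.05 there were 3 (13.0%, beside 6.31% of all genes), 2 higher and 1 lower. A fit that used the mouse as a replicate block counted 1, as did fits without the dimmer genes and with the mean of all probe sets. Hectd2 was the lower one, at 4.94 and 4.99 in N-myc high against 5.87 and 5.84 in N-myc low, by -0.89 (SE 0.173, limma adjusted p = 0.744), and its 2 other probe sets had the same sign. Herc3 had 1.13 and Wwp1, of the Nedd4 family, 0.62, but each had other probe sets of opposite sign.

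F-box proteins besides Fbxw7 and Skp2 had a median of 0.01 over 36 measured of 37 genes. At an unadjusted p under 0.05 there were 4 (11.1%, beside 6.31% of all genes), 2 in each direction. Fbxo10 was at 7.76 and 7.57 in N-myc high, against 7.05 and 6.76 in N-myc low, a difference of 0.76. Fbxo30 was at 6.66 and 6.61 against 7.59 and 7.19, a difference of -0.75 that all 3 of its other probe sets shared in sign, and Fbxo7 had -0.62. The count was 2 when either N-myc high mouse 1 or N-myc low mouse 1 was left out. Deubiquitinases of the USP family besides the members had a median of -0.01 over 33 measured of 34 genes. Usp53 was the 1 gene (3.03%) at an unadjusted p under 0.05, at 5.97 and 5.87 in N-myc high against 5.19 and 4.61 in N-myc low. Its 2 other probe sets had the same sign. Usp40 and Usp2 had -0.66 and -0.65. The count was 2 with the mouse as a replicate block and 0 with the dimmer genes, Usp53 among them, left out.

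Genes whose proteins are substrates of the members had a median of 0.15 over 23 measured of 25 genes, with 0.08 in mouse 1 and -0.07 in mouse 2. Leaving out N-myc low mouse 1 turned this median to -0.10, and leaving out N-myc high mouse 2 to -0.03. Of 2 genes (8.70%) at an unadjusted p under 0.05, 1 was Mycn, which the sort chose. The other was Cdkn1c, a cyclin-dependent kinase inhibitor degraded through Skp2, at 7.03 and 7.32 in N-myc high against 5.09 and 5.87 in N-myc low (difference 1.69, SE 0.325, limma adjusted p = 0.744). Foxo1, a transcription factor that Skp2 also targets, had 1.00 with its brightest probe set and between 0.03 and 0.14 with the other 3. The count was 5 when N-myc high mouse 1 was left out and 4 when N-myc low mouse 2 was.

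**Figure D4:**
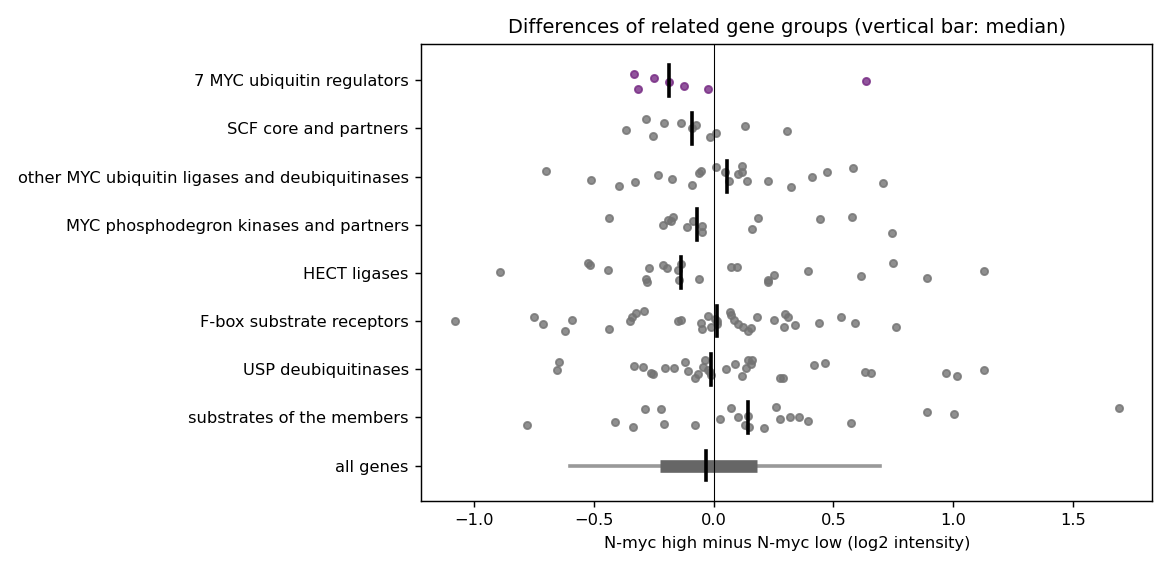
Difference between N-myc high and N-myc low (horizontal axis, log2 units) of each measured gene in the 7 MYC ubiquitin regulators (purple) and in 7 related lists (grey), with vertical bars for medians. The bottom row shows all 18193 genes, with the central 50% as a thick bar and the central 90% as a thin one. The list medians lie between -0.19 and 0.15, inside the central 50% of all genes.

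The profile of Huwe1 over the 4 arrays, centred on its mean, was closest to those of Wsb1, Mrps14 and Ttc13, with root-mean-square distances of 0.012, 0.018 and 0.020 log2 units. These were picked from 2328 genes with a mean within 1 log2 unit of Huwe1, and 305 of them lay within 0.1, so the nearness of the 3 says little beyond a flat profile. Usp7 was nearest to Pim3, Tm9sf2 and Gimap6, at distances of 0.043, 0.055 and 0.072, and 9 of 1417 genes lay within 0.1 of it. With 4 arrays such likeness is a description.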

How the data were processed

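Per the submitters' processing notes, the authors made the deposited values, log2 probe set intensities, with RMA, and affy and limma are also named, all without versions. RMA corrects background, normalises by quantiles and sums up probe sets, so a shift common to an array is removed. The chip definition and genome build are not stated, and detection calls were not used here. Per the labels, 5 ng of RNA was amplified for each array and such amplification adds spread. Precision is limited by the number of arrays.

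Of 45101 probe sets, 64 were controls, 34945 carried 1 gene symbol, 932 several and 9160 none. Symbols matched RefSeq through 34754 Entrez numbers with 0 changes. For 18193 genes the brightest probe set was tested with lmFit and eBayes (limma 3.58.1, R 4.3.3), high minus low, two-sided, with Benjamini-Hochberg adjustment over all genes. The fit over 45037 probe sets gives the adjusted p of single probe sets that do not stand for a gene. No dim genes were left out. The test was checked on simulated data, where it often missed the adjusted threshold for genes made to differ, so a miss does not show that a gene did not differ. P-values measure only the spread between these arrays.

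The labels' mouse number was read as pairing the arrays, but the reported fit has no term for the mouse. The mouse entered as a replicate block only in an alternative fit. Across genes, the correlation between the deviations of arrays with 1 number from their group mean was 0.0492. The members and lists were chosen with earlier results of these data known. Named genes were the 7 members, Mycn, and per list the 3 genes of smallest p with the same sign in both mice, plus the 3 nearest in profile to Huwe1 and to the member of smallest p. Kit, Procr, Cd3e, Cd48, Fcgr3, Flt3, Il7r, C1qb, H2-Aa, Cd74, Zbtb46, Ighm, Vpreb1, Xist and Eif2s3y were added as checks after their values were seen.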

Additional observations from a re-analysis of the deposited data

How the results depend on the processing

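With 2 arrays a group, no setting brought any of the 7 genes or any other gene past the adjusted threshold in limma. Huwe1, Usp28, Trim32 and Stub1 stayed below 0 and Usp7 above 0 under each alternative. The alternatives were the mouse as a replicate block, each array left out, and the mean of all probe sets of a gene. The others were the dimmer genes left out, a further quantile normalization, eBayes with trend and robust, and every probe set tested. The replicate block, the dimmer genes left out, eBayes with trend and robust, and every probe set tested leave a difference as it is. Its sign could therefore not change in them. Nor could a left-out array turn Huwe1, Trim32, Stub1 or Usp7, whose groups do not overlap. For Usp28 and Trim32, with 1 probe set each, the mean of all probe sets is the same value. With the mouse as a replicate block Usp7 was 0.64 (SE 0.184, limma adjusted p = 0.781) and Huwe1 -0.12 (SE 0.183), and the pairing changed no call of a member. It changed the counts at an unadjusted p under 0.05 of HECT genes (1 in place of 3), USP genes (2 in place of 1), F-box genes (3 in place of 4) and substrates (3 in place of 2). Fbxw7 turned to 0.19 without N-myc high mouse 2 and to 0.19 without N-myc low mouse 2, within a range from -0.24 to 0.19 over left-out arrays. Skp2 turned to 0.16 without N-myc high mouse 2, within a range from -0.82 to 0.16. The count of members at an unadjusted p under 0.05 was 1 (Usp7) and became 0 with the mean of all probe sets, and between 0 and 1 with an array left out (0 without N-myc high mouse 1, N-myc high mouse 2 or N-myc low mouse 1). An arm left with 1 array was assumed to vary like the other. Over all genes that count was 1148. It was 606 with the dimmer genes left out and 2870 with every probe set tested, which changes how many features enter. Over the alternatives the adjusted p of Usp7 ranged from 0.630 to 0.963 and that of Huwe1 from 0.911 to 0.996.

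The mean of all probe sets moved Usp7 to 0.14 and Fbxw7 to -0.35. The other alternatives read each gene from its brightest probe set, so they do not bear on the choice of probe set. Each of the 7 lists was read under each alternative except every probe set tested. Over these readings, 17 medians moved by more than the spread between the mice, and 18 counts at an unadjusted p under 0.05 by more than 1.5 times. That spread was 0.008 for the SCF core, and in a short list a single gene can move a count by this much.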
